A study of Sus scrofa with 6 samples.

Results

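The cytotoxic and NK cell genes are the genes with which natural killer (NK) cells and cytotoxic T cells recognise and kill target cells. They were taken from a list of 10 symbols, GZMA, GZMB, GZMH, PRF1, NKG7, KLRB1, KLRD1, KLRK1, NCR1 and FASLG, and a row of the deposited table was a member when its symbol equalled one of these. The rule found 9 rows for 8 of the symbols, of 11564 genes in the table. GZMA had 2 rows, and no row carried the symbols GZMH or KLRD1. All 9 rows were among the 10735 genes tested.

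The libraries came from peripheral blood mononuclear cells (PBMCs), the lymphocytes and monocytes separated from blood, of 6 Yorkshire pigs at 6 months of age. Of these, 3 were labelled WT and 3 were labelled Leptin-overexpressing, and each library carried a different animal code. The leptin pigs were cloned by nuclear transfer from transfected fetal fibroblasts. The supplementary protocol names a male Yorkshire fetus as the source of these cells, where the methods name embryos in the plural. The paper describes the vector as carrying the pig leptin reading frame under a pig leptin promoter. Its protocol moves that reading frame into a vector with a green fluorescent protein and names no promoter. The controls were nontransgenic, and whether they were cloned too is not given in the sources used here. Expression was deposited as FPKM, that is, fragment counts scaled by transcript length and by the number of mapped fragments, and the FPKM values summed to between 444888 and 503140 per library. Because FPKM values carry no counts, no counting error could be given, and precision rests on 3 animals per label.

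LEP, the gene that the transgene overexpresses, did not follow the labels in 2 libraries. It was at 50.0 FPKM in the library labelled WT replicate 1, listed at 0 in WT replicate 2 and at 0.118 FPKM in WT replicate 3. Among the libraries labelled Leptin-overexpressing it was listed at 0 in replicate 1 and was at 18.3 and 39.3 FPKM in replicates 2 and 3. Libraries are therefore named by their labels throughout, and values without both replicate 1 libraries are given beside the members and lists whose direction they changed. Without them the median log2 fold change of all genes tested, 0.059 with all libraries, was -0.032. The library labelled WT replicate 1 also stood apart by its summed neutrophil markers, at 3468 FPKM against 358 to 1043 FPKM in the other 5 libraries, and by its summed erythroid markers, at 218.9 FPKM against 21.8 to 102.6 FPKM.

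NK cells and cytotoxic T cells kill by releasing granules onto a bound target. Perforin opens the way through the target membrane, and granzymes, which are serine proteases, enter the cell and start its death. A separate route uses Fas ligand on the killer cell surface, which engages the death receptor Fas. Release is controlled by receptors that read the target surface, some activating, such as NKG2D and NKp46, and some inhibitory. In pig blood, NK cells, subsets of gamma delta T cells and CD8 T cells carry this programme. In RNA from mixed blood cells, fewer cytotoxic cells and less of each RNA per cell cannot be told apart.

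The identity of several rows is limited by the annotation. The row named GZMB in the deposited table (ENSSSCG00000001978, chromosome 7 from 79831196 to 79834605) bears the symbol GZMH in the Ensembl name table used for reference, while the RefSeq gene list places GZMB and GZMH beside each other as separate genes. The row is called GZMB here, after the deposited table, and its reads cannot be assigned with certainty to either granzyme. The GZMA rows lie side by side on chromosome 16, ENSSSCG00000016902 from 36365988 to 36376137 and ENSSSCG00000016903 from 36385657 to 36393941, and the reference names both GZMA. NCR1 (ENSSSCG00000027895, chromosome 6 from 53693760 to 53700845) spans 7086 bp, and a second row without a symbol (ENSSSCG00000022675, chromosome 6 from 54195827 to 54202912) spans the same 7086 bp and is named NCR1 by the reference. The FPKM of the first NCR1 row was 1.13 to 1.33 times that of the second in every library. How reads were shared between these copies is not given in the sources used here, so the levels of GZMA, GZMB and NCR1 are uncertain. Coordinates are those of the deposited table, which names no genome build.

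The level of the cytotoxic genes in PBMC RNA differed widely between genes. NKG7, a granule membrane protein of NK and cytotoxic T cells, was the highest at a mean of 97.5 FPKM over the 6 libraries. KLRK1 followed at 54.0 FPKM, then the GZMA row ENSSSCG00000016903 at 52.0, GZMB at 27.3 and PRF1 at 15.5 FPKM. The lowest were the GZMA row ENSSSCG00000016902 at 6.10, FASLG at 3.43, KLRB1 at 3.40 and NCR1 at 2.65 FPKM. FPKM is scaled by transcript length, so these levels can be compared between genes. For GZMA, GZMB and NCR1 the comparison is limited by the unknown sharing of reads between copies. NKG7 exceeded KLRK1 in 6 of 6 libraries, and PRF1 exceeded the lower GZMA row in 6 of 6. The order of the other neighbours was not fixed. KLRK1 was above the higher GZMA row in 3 of 6 libraries, GZMB was above PRF1 in 3 of 6, and FASLG was above KLRB1 in 3 of 6.

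**Figure D1:**
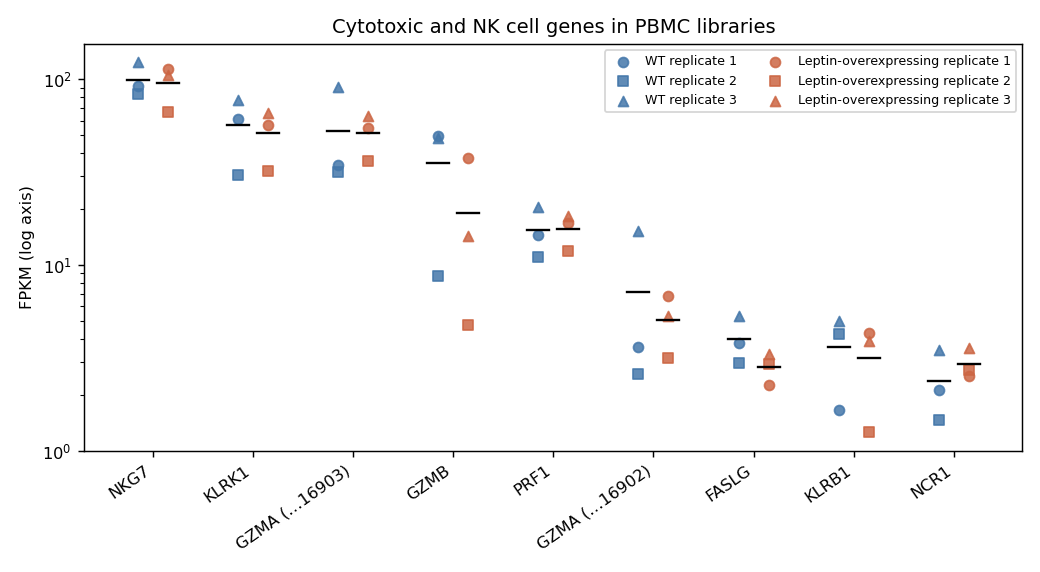
FPKM on a log axis (vertical) of each of the 9 member rows (horizontal), with 1 point per library, circles, squares and triangles for replicates 1, 2 and 3, and a black bar for the mean of the 3 libraries of a label. The labels overlap in every row, and GZMB spans the widest range on this scale, from 4.73 to 49.4 FPKM.

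To ask whether leptin overexpression was accompanied by a change in this programme, the libraries were compared by label with limma on log2(FPKM + 1). None of the 9 rows passed the test. With a Benjamini-Hochberg adjusted p under 0.05 in limma, 0 of the 9 member rows were called, against 1 of all 10735 genes (0.00932%). At an unadjusted p under 0.05, again 0 of 9 were called, against 341 of all genes (3.18%). The 3 libraries of one label lay wholly above or below those of the other label for 0 of the 9 rows, against 7.63% of all genes tested. On the log2(FPKM + 1) scale of the fit, 3 member rows had a higher and 6 a lower mean in the libraries labelled Leptin-overexpressing, with a median log2 fold change of -0.093 (range from -0.95 to 0.26), beside 0.059 over all genes. With libraries rescaled by the median of ratios, 2 rows were higher and 7 lower, and 50.5% of all genes were higher, where 63.1% were before. The direction of the members depended on single libraries. Without WT replicate 3, or without Leptin-overexpressing replicate 2, 7 rows were higher and 2 lower, while without WT replicate 2, without Leptin-overexpressing replicate 3 or without both replicate 1 libraries 1 was higher and 8 were lower. Some rows named below did not overlap once libraries were left out, and beside them the share of all genes that then did not overlap was 14.9% without WT replicate 2, 26.8% without WT replicate 3, 17.6% without Leptin-overexpressing replicate 3 and 25.9% without both replicate 1 libraries.

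Among the granule proteins, PRF1 (ENSSSCG00000010271, chromosome 14 from 79362924 to 79368419), which encodes perforin, measured 14.5, 11.1 and 20.6 FPKM under the WT label (replicates 1, 2 and 3) and 16.8, 11.96 and 18.2 FPKM under the Leptin-overexpressing label. All the values labelled Leptin-overexpressing lay between the lowest and the highest labelled WT. The means were 15.4 ± 4.84 (SD, n = 3) and 15.7 ± 3.29 (SD, n = 3) FPKM, so that the log2 fold change was 0.047 (SE 0.25, 95% interval from -0.52 to 0.62, limma adjusted p = 0.997). It was -0.015 with the median-of-ratios scaling, -0.031 without both replicate 1 libraries and from -0.15 to 0.27 with one library left out. An interval of this width does not show that perforin RNA was equal between the labels.

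GZMB, a granzyme that cleaves after aspartate and activates caspases, was the most variable member. It measured 49.4, 8.77 and 48.6 FPKM under the WT label and 37.8, 4.73 and 14.3 FPKM under the Leptin-overexpressing label. Low and high libraries occurred under both labels, and the highest value was 10.4 times the lowest. The means of 35.6 ± 23.2 (SD, n = 3) and 19.0 ± 17.0 (SD, n = 3) FPKM differed by a log2 fold change of -0.95 (SE 0.80, 95% interval from -2.79 to 0.90, limma adjusted p = 0.993). An exact two-sided permutation test gave p = 0.5, where 3 libraries against 3 cannot give less than 0.1. The residual standard deviation of GZMB on the log2 scale was 1.37, and 99.5% of the genes tested had one at or below it. Without the library labelled WT replicate 2 the labels no longer overlapped, and the log2 fold change was -1.73 (unadjusted p = 0.0315, limma adjusted p = 0.999). It was -1.63 without Leptin-overexpressing replicate 1, -0.55 without WT replicate 1, -0.56 without WT replicate 3 and -0.25 without Leptin-overexpressing replicate 2.

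The higher GZMA row, which encodes granzyme A, a protease that cleaves after basic residues, measured 34.7, 31.6 and 91.3 FPKM under the WT label and 54.6, 36.4 and 63.6 FPKM under the Leptin-overexpressing label. The library labelled WT replicate 3 was far above the other libraries of its label, which were the lowest of the 6. The log2 fold change was 0.11 (SE 0.40, limma adjusted p = 0.993). It was 0.59 without that library, where the labels did not overlap (unadjusted p = 0.0495, limma adjusted p = 0.614), and -0.16 without both replicate 1 libraries. The lower GZMA row measured 3.60, 2.59 and 15.2 FPKM under the WT label and 6.76, 3.14 and 5.29 FPKM under the Leptin-overexpressing label. Its log2 fold change of -0.13 (SE 0.53, limma adjusted p = 0.993) was 0.53 without the same library and 0.12 without Leptin-overexpressing replicate 2, but -0.38 without WT replicate 1, -0.56 without WT replicate 2 and -0.58 without both replicate 1 libraries. The higher row was 6.00 to 12.2 times the lower row, with the smallest ratio in the library labelled WT replicate 3.

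NKG7 (ENSSSCG00000003231, chromosome 6 from 51692515 to 51695384) varied least in relative terms. It measured 92.3, 83.3 and 123.3 FPKM under the WT label and 113.5, 66.9 and 105.4 FPKM under the Leptin-overexpressing label. The highest value carried the WT label and the lowest the Leptin-overexpressing label, and the ratio between them was 1.84. Between the labels, the log2 fold change was -0.081 (SE 0.24, 95% interval from -0.64 to 0.48, limma adjusted p = 0.993), and from -0.22 to 0.15 with one library left out.

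**Figure D2:**
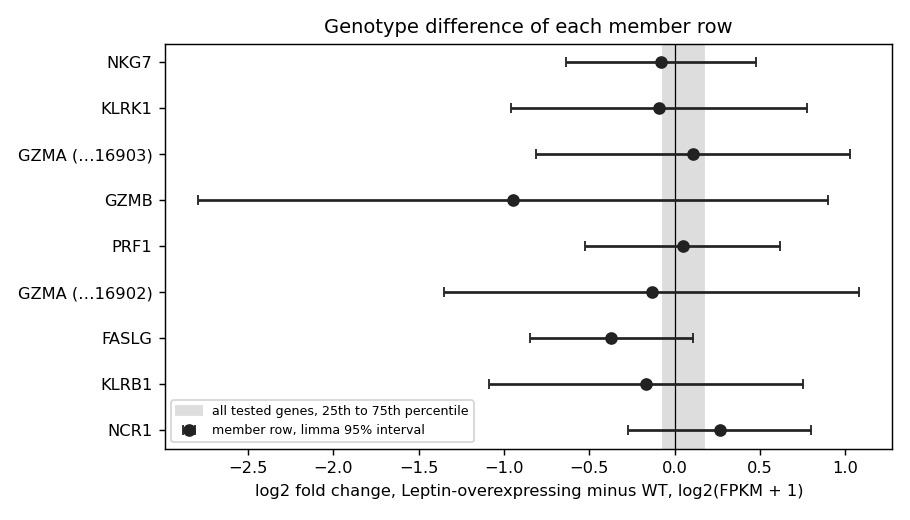
Log2 fold change on the log2(FPKM + 1) scale (horizontal), libraries labelled Leptin-overexpressing minus WT, for each member row (vertical), with the limma 95% interval as a bar and the 25th to 75th percentile of all tested genes as a grey band. Every interval includes 0, and the widest is that of GZMB, from -2.79 to 0.90.

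Of the receptors, KLRK1 (ENSSSCG00000000641, chromosome 5 from 64370013 to 64378469) encodes NKG2D, which binds stress ligands on target cells. It measured 61.4, 30.7 and 77.3 FPKM under the WT label and 56.4, 32.01 and 66.3 FPKM under the Leptin-overexpressing label. Replicate 2 was the lowest library under either label, and the labels covered nearly the same range. The log2 fold change was -0.093 (SE 0.38, 95% interval from -0.96 to 0.77, limma adjusted p = 0.993), and from -0.47 to 0.21 with one library left out.

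NCR1, which encodes NKp46, an activating receptor mostly restricted to NK cells, measured 2.12, 1.47 and 3.48 FPKM under the WT label and 2.51, 2.72 and 3.56 FPKM under the Leptin-overexpressing label. The lowest and second lowest values carried the WT label, but WT replicate 3 was nearly as high as the highest. Between the labels, the log2 fold change was 0.26 (SE 0.23, 95% interval from -0.27 to 0.80, limma adjusted p = 0.993). It was 0.49 without the library labelled WT replicate 3, where the labels did not overlap (unadjusted p = 0.0383, limma adjusted p = 0.614), 0.15 without Leptin-overexpressing replicate 3 and 0.064 without WT replicate 2. The second NCR1 row, with no symbol, had a log2 fold change of 0.34 (limma adjusted p = 0.993).

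KLRB1 (ENSSSCG00000030978, chromosome 5 from 65081357 to 65094180), which encodes the lectin-like receptor CD161, measured 1.66, 4.26 and 4.98 FPKM under the WT label and 4.31, 1.26 and 3.91 FPKM under the Leptin-overexpressing label. One library under each label was low, WT replicate 1 and Leptin-overexpressing replicate 2. The log2 fold change was -0.17 (SE 0.40, limma adjusted p = 0.993), and it was -0.75 without both replicate 1 libraries, where the labels did not overlap (limma unadjusted p = 0.0974). It was -0.036 without WT replicate 2, 0.057 without WT replicate 3 and 0.22 without Leptin-overexpressing replicate 2. With KLRB1, NCR1 and FASLG close to the filter of 1 FPKM, the log2(FPKM + 1) scale understates their relative change. With a pseudocount of 0.1 their log2 fold changes were -0.23, 0.37 and -0.47.

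FASLG (ENSSSCG00000022226, chromosome 9 from 126641116 to 126647827), the Fas ligand, had the smallest unadjusted p of the members with all libraries compared by label alone. It measured 3.82, 2.95 and 5.28 FPKM under the WT label and 2.26, 2.94 and 3.32 FPKM under the Leptin-overexpressing label. The values labelled WT began at about the middle value of the other label, so the labels overlapped. The means were 4.02 ± 1.18 (SD, n = 3) and 2.84 ± 0.537 (SD, n = 3) FPKM, so that the log2 fold change was -0.37 (SE 0.21, 95% interval from -0.85 to 0.10, unadjusted p = 0.110, limma adjusted p = 0.993). An exact two-sided permutation test gave p = 0.2. Between the labels, the log2 fold change of FASLG stayed negative under each of the 13 alternatives tried, from -0.53 to -0.19, and the labels did not overlap without WT replicate 2 (limma unadjusted p = 0.0380) or without Leptin-overexpressing replicate 3 (limma unadjusted p = 0.0927).

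Most member rows were high or low in the same libraries, and these libraries were found under both labels. The library labelled WT replicate 3 had the highest value of 7 of the 9 rows and was among the top 2 libraries for 9 of 9. On the log2(FPKM + 1) scale, with each row centred on its own mean, the member rows averaged 0.70 in that library. The average was 0.21 and 0.15 in Leptin-overexpressing replicates 1 and 3, -0.015 in WT replicate 1, -0.46 in WT replicate 2 and -0.59 in Leptin-overexpressing replicate 2. WT replicate 2 and Leptin-overexpressing replicate 2 were each among the lowest 2 libraries for 7 of the 9 rows. For all genes tested, the median centred value ran only from -0.13 to 0.11 over the libraries. The residual standard deviation had a median of 0.61 over the member rows, beside 0.22 over all genes, and 9 of the 9 rows were above the latter.

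**Figure D3:**
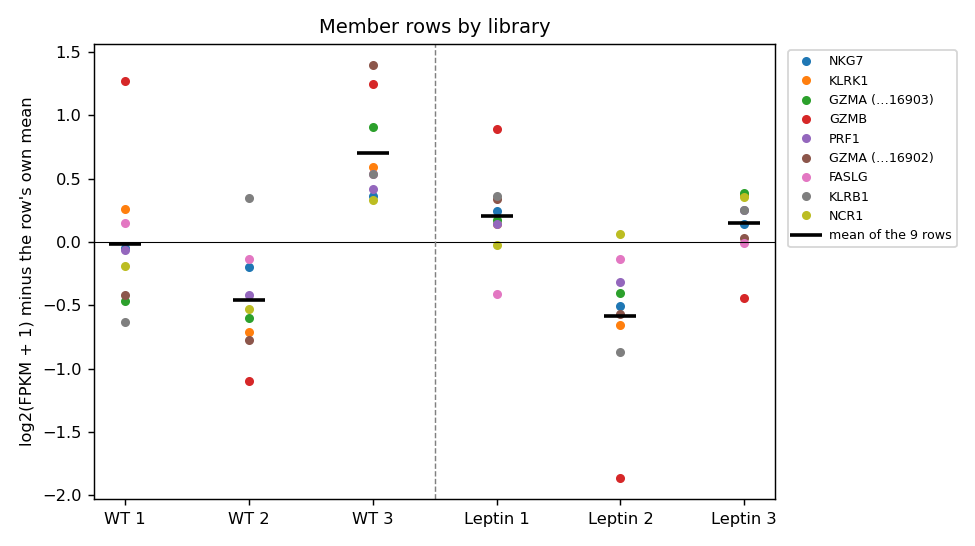
Log2(FPKM + 1) minus the row's own mean (vertical) in each library (horizontal, WT left and Leptin-overexpressing right of the dashed line), with a coloured point per member row and a black bar for the mean of the 9 rows. The bar is highest in WT replicate 3, at 0.70, and lowest in Leptin-overexpressing replicate 2, at -0.59.

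GZMB lay farthest from the members' mean profile, with a root mean square difference of 0.90 over the 6 libraries. KLRB1 was next at 0.44, while PRF1, at 0.17, and NKG7, at 0.18, lay closest. Each row is itself part of this mean. Set among 7100 other tested genes with a symbol, PRF1, NKG7, KLRK1 and the higher GZMA row would rank 13, 18, 29 and 119 in closeness. The remaining rows would rank from 1250 (NCR1) to 6948 (GZMB), so many other genes lay closer to the mean than these did. In the library labelled WT replicate 1, GZMB was 1.27 above its own mean on the centred scale, and the higher GZMA row stood at -0.47. The ratio of GZMB to the higher GZMA row was 1.42 in that library and 0.13 to 0.69 in the other 5 libraries. FASLG was lowest in Leptin-overexpressing replicate 1, a library in which 7 of the 9 rows were above their mean.

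The genes outside the members whose library profile lay closest to the members' mean were CCL5, NOS2, CD8A, BATF and SAMHD1. Likeness was the root mean square difference of centred log2(FPKM + 1) values over the 6 libraries, and it was 0.11 for CCL5, 0.13 for NOS2, 0.14 for CD8A, 0.14 for BATF and 0.15 for SAMHD1, among 7100 tested genes with a symbol. The points are the same 6 libraries for every gene, so likeness is a description only. CCL5, a chemokine made by cytotoxic lymphocytes, measured 519.8, 448.2 and 868.9 FPKM under the WT label and 677.6, 330.5 and 563.9 FPKM under the Leptin-overexpressing label. CD8A, the alpha chain of the CD8 coreceptor of cytotoxic T cells, was at 71.9, 62.9 and 116.8 FPKM and at 104.9, 52.2 and 98.9 FPKM in the same order.

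Of the marker lists, the CD8 list was high and low in the same libraries as the members' mean. CD8 T cells are among the cells that carry the members, so this list does not stand for cells apart from them. The list for all T cells shared the members' lowest libraries but not their highest, and those for B cells and monocytes had other orders. The summed FPKM of the CD8 markers CD8A and CD8B was 144.9 in WT replicate 3 and 133.4 and 127.3 in Leptin-overexpressing replicates 1 and 3. It was 93.8 in WT replicate 1, 77.3 in WT replicate 2 and 72.7 in Leptin-overexpressing replicate 2. The members' mean had the same order, but that of Leptin-overexpressing replicates 1 and 3 (0.21 and 0.15) came from GZMB. On the centred scale GZMB stood at 0.89 and -0.45 in these libraries. The order of the CD8 sums is that of CD8A. CD8B alone was highest in Leptin-overexpressing replicate 1, at 28.5 FPKM, and lowest in WT replicate 2, at 14.5 FPKM. The 9 T cell markers, all tested, summed to 1186, 913.8 and 1212 FPKM under the WT label and to 1363, 826.8 and 1413 FPKM under the Leptin-overexpressing label. They were lowest in both replicate 2 libraries, but WT replicate 3 lay below Leptin-overexpressing replicates 1 and 3 and close to WT replicate 1. CD4 measured 38.6, 21.9 and 26.0 FPKM under the WT label and 34.8, 27.3 and 39.6 FPKM under the Leptin-overexpressing label. For CD4, WT replicate 3 lay below every library labelled Leptin-overexpressing. For 7 monocyte marker rows, of which the CD163 row is named SCART1 by the Ensembl table, the sums were 366.8 to 834.7 and 499.5 to 847.8 FPKM in that order, with the lowest in WT replicate 3, the highest in Leptin-overexpressing replicate 2 and a low 435.3 in WT replicate 2. The 5 B cell markers found ranged from 380.1 to 675.6 and from 550.0 to 658.3 FPKM, with the lowest in WT replicate 1 and the highest in WT replicate 2. Lymphocyte and monocyte markers were thus present in every library, and in WT replicate 1 the neutrophil sum of 3468 FPKM exceeded the monocyte sum of 834.7 and the B cell sum of 380.1 FPKM. It also exceeded both in Leptin-overexpressing replicate 2, at 1043 against 847.8 and 550.0 FPKM. In WT replicate 2 it exceeded the monocyte sum only, at 656.4 against 435.3 FPKM. Most of the neutrophil sum in both replicate 2 libraries lay in S100A8, S100A9 and S100A12. LTF and MMP8 were at 7.47 and 0.928 FPKM in WT replicate 2 and at 9.92 and 0.852 FPKM in Leptin-overexpressing replicate 2. The lists hold different genes, so their sums do not rank the cell types by number. Of the 8 NK markers listed, 5 had a row, 4 of them members (NKG7, KLRK1, KLRB1 and NCR1), and KLRD1, KLRF1 and FCGR3A had none by symbol. The part of these markers in the members' differences was not tested.

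**Figure D4:**
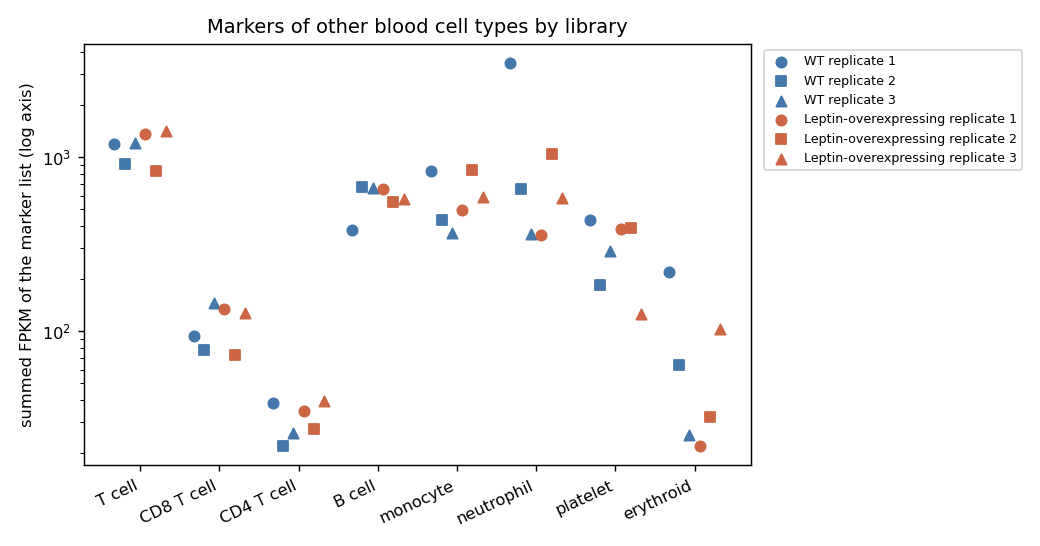
Summed FPKM on a log axis (vertical) of marker lists for blood cell types, without the NK list (horizontal). There is 1 point per library, with colour for the label and shape for the replicate. The neutrophil sum of 3468 FPKM in WT replicate 1 stands above the other 5 libraries, and the CD8 sums run from 72.7 to 144.9 FPKM.

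Of the other granule effectors, 6 genes were tested, 5 with a higher and 1 with a lower mean in the libraries labelled Leptin-overexpressing, and 0 had an unadjusted p under 0.05 in limma. Their median log2 fold change was 0.099, and it was 0.033 with the median-of-ratios scaling, -0.0016 without WT replicate 2 and -0.015 without both replicate 1 libraries. GNLY, the antimicrobial granule protein granulysin, had the largest positive value, 0.16 (limma adjusted p = 0.993), and measured 403.0, 105.3 and 283.4 FPKM under the WT label and 193.9, 248.0 and 350.2 FPKM under the Leptin-overexpressing label. The low GNLY value was in WT replicate 2, as for most members, but Leptin-overexpressing replicate 2 was not low. CTSC, the protease that activates granzymes, had the one negative value, -0.055 (limma adjusted p = 0.993).

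The machinery that moves and fuses granules gave 9 tested genes, 7 higher and 2 lower, with a median log2 fold change of 0.044. With the median-of-ratios scaling 4 were higher and 5 lower, and the median was -0.022. None had an unadjusted p under 0.05 in limma (0 of 9). The extremes were VAMP8, a vesicle fusion protein, at 0.27, and STX11, a syntaxin needed for granule release, at -0.35 (both limma adjusted p = 0.993).

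Among 15 other tested NK receptors, adaptors and kinases, 13 were higher and 2 lower, with a median log2 fold change of 0.068, and 1 passed an unadjusted p under 0.05 in limma, beside 3.18% of all genes. With the median-of-ratios scaling, and likewise without both replicate 1 libraries, 8 were higher and 7 lower, with medians of 0.0024 and 0.017. The gene past the unadjusted p was CD244, which encodes the receptor 2B4. It measured 16.3, 16.02 and 23.8 FPKM under the WT label and 28.1, 26.3 and 31.2 FPKM under the Leptin-overexpressing label. Every library labelled Leptin-overexpressing lay above every library labelled WT, and the labels did not overlap for 7.63% of all genes. The log2 fold change was 0.60 (SE 0.19, unadjusted p = 0.0116, limma adjusted p = 0.993), so it did not pass the adjusted test, and without both replicate 1 libraries its unadjusted p was 0.0775. KLRG1, an inhibitory receptor of differentiated killer cells, had the lowest value, -0.35 (limma adjusted p = 0.993).

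The lineage transcription factors gave 9 tested genes, 1 higher and 8 lower, with a median log2 fold change of -0.059 and 0 at an unadjusted p under 0.05 in limma. The median was -0.22 without Leptin-overexpressing replicate 3 and 0.041 without Leptin-overexpressing replicate 2. TBX21, the T-box factor of killer cells, measured 67.1, 67.4 and 111.1 FPKM under the WT label and 69.8, 62.7 and 102.4 FPKM under the Leptin-overexpressing label. WT replicate 3 was again the highest library. IKZF3 had the lowest log2 fold change, -0.53, and GATA3 the highest, 0.015 (adjusted p = 0.993 and 0.998, limma).

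For death ligands, receptors and their effectors, 10 genes other than FASLG were tested, 3 higher and 7 lower, with a median log2 fold change of -0.13. Without WT replicate 2, 5 were higher and 5 lower, with a median of 0.015. TNF was the 1 gene of 10 with an unadjusted p under 0.05 in limma, beside 3.18% of all genes, with a log2 fold change of 1.29 (adjusted p = 0.993). It measured 18.4, 8.76 and 35.9 FPKM under the WT label and 43.3, 47.5 and 46.6 FPKM under the Leptin-overexpressing label, which did not overlap, as for 7.63% of all genes. Without both replicate 1 libraries its unadjusted p in limma was 0.0683, and without WT replicate 2 its log2 fold change was 0.81. The receptor of Fas ligand, FAS, had a log2 fold change of 0.044, and the row named TNFSF10 in the deposited table, the ligand TRAIL, which the Ensembl name table calls GHSR, had the lowest value, -0.28 (adjusted p = 0.993 for both, limma).

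Of 14 genes for cytokines of NK cells, cytokine receptors and their signalling proteins (the kinase JAK3 and the transcription factor STAT4), 8 were higher and 6 lower, with a median log2 fold change of 0.059 (-0.0011 with the median-of-ratios scaling and -0.038 without both replicate 1 libraries), and 2 of the 14 passed an unadjusted p under 0.05 in limma, beside 3.18% of all genes. These were the chemokines CCL4, at 2.38 (adjusted p = 0.897), and XCL1, at 0.56 (adjusted p = 0.993), and neither had overlapping labels, as for 7.63% of all genes. CCL4 measured 16.4, 18.1 and 9.34 FPKM under the WT label and 53.7, 132.6 and 65.7 FPKM under the Leptin-overexpressing label. Its sign follows the deposited labels, which LEP contradicts in both replicate 1 libraries, and without these its log2 fold change was 2.75 (limma adjusted p = 0.999). XCL1 measured 5.17, 6.61 and 6.42 FPKM under the WT label and 7.51, 14.04 and 7.66 FPKM under the Leptin-overexpressing label. XCL1 was at an unadjusted p under 0.05 in 5 of the 13 alternatives, and its log2 fold change was 0.29 without Leptin-overexpressing replicate 2 (limma unadjusted p = 0.123). Both chemokines were highest in Leptin-overexpressing replicate 2, where 7 of the 9 member rows were among their lowest 2 values. IFNG, the interferon of activated killer cells, was at 3.89, 2.13 and 5.13 FPKM and at 4.08, 1.44 and 4.24 FPKM in the same order, with its low values in the same replicate 2 libraries as most members. IL18RAP, a receptor chain for interleukin 18, had the lowest log2 fold change, -0.47 (limma adjusted p = 0.993).

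**Figure D5:**
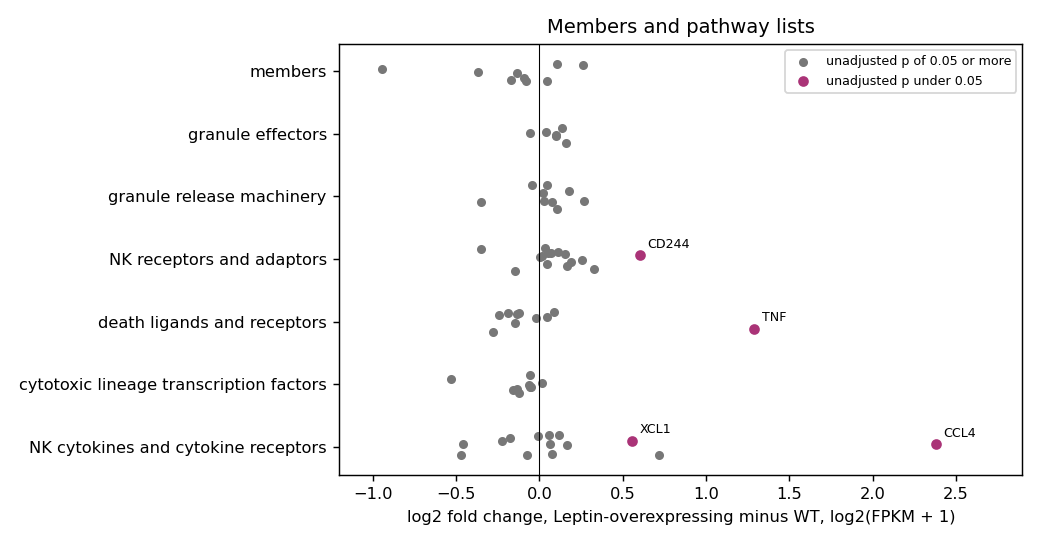
Log2 fold change on the log2(FPKM + 1) scale (horizontal), libraries labelled Leptin-overexpressing minus WT, of the member rows and of the tested genes of 6 pathway lists without the members (vertical), with genes at an unadjusted limma p under 0.05 in purple. CD244, TNF, XCL1 and CCL4 are the 4 genes so marked, and none of the members is.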

How the data were processed

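RNA-seq of PBMCs from 6 pigs was used, 3 per label. The authors deposited 1 FPKM value per gene and library. Their methods describe alignment to an Ensembl transcriptome with Bowtie and quantification with RSEM, while the submitters' processing notes list STAR 2.5, Cuffnorm and DESeq 1.22.1. Which of these made the values is not given in the sources used here. The authors' own comparison columns were not used.

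Genes that reached 1 FPKM in 3 or more libraries were fitted with limma 3.58.1 in R 4.3.3 on log2(FPKM + 1) with genotype only, two-sided, and p-values were adjusted by Benjamini-Hochberg over the 10735 genes. Residual standard deviations come from this fit. The scripts were tested on simulated data. Values were searched for steps of single fragments by their ratios between libraries. A ratio recurred clearly in 1 pair, Leptin-overexpressing replicates 1 and 2 (0.906, in 56 genes against 19 at the next), and no step common to the 6 libraries was found, so the depth is unknown.

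All members are named, with LEP, the pathway genes at an unadjusted p under 0.05 or at either end of their list, the 5 genes of most similar profile and cell markers. TBX21, IFNG and FAS were named after their values were seen. The members and lists were chosen with earlier results of these data known. Alternatives were the pseudocount (0.1), the filter, median-of-ratios scaling, the replicate number as a block, limma with trend and robust on, and libraries left out.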

Additional observations from a re-analysis of the deposited data

How the results depend on the processing

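No member passed the adjusted p under any of the 13 alternatives (0 rows in each, limma). The median log2 fold change of the member rows ranged from -0.27 without both replicate 1 libraries to 0.21, and with one library left out from -0.22 to 0.21, positive without WT replicate 3 or without Leptin-overexpressing replicate 2. Signs turned without both replicate 1 libraries for GZMA ENSSSCG00000016903 (-0.16) and PRF1 (-0.031), and with median-of-ratios scaling for PRF1 (-0.015). With one library left out, log2 fold changes ranged from -0.22 to 0.15 for NKG7, from -0.47 to 0.21 for KLRK1, from -0.17 to 0.59 for GZMA ENSSSCG00000016903, from -0.56 to 0.53 for GZMA ENSSSCG00000016902, from -0.15 to 0.27 for PRF1 and from -0.53 to 0.22 for KLRB1. GZMB (-1.73 to -0.25) and FASLG (-0.53 to -0.19) stayed negative and NCR1 (0.064 to 0.49) positive under all 13, with the ranges over one library left out. Member rows with no overlap between the labels numbered 0 to 2 with one library left out and 1 without both replicate 1 libraries, where 25.9% of all genes did not overlap. The cause of these changes was not tested.

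Over all genes, the number called at the adjusted p was 0 when every library had to reach 1 FPKM, 0 without both replicate 1 libraries, 2 with the replicate block and 0 to 3 with one library left out, and the number at the unadjusted p was 247 to 846 with one left out, the latter without WT replicate 3. With one library left out, the median log2 fold change of granule effectors was -0.0016 to 0.21, of release machinery 0.051 to 0.14, of NK receptors 0.017 to 0.22 and of lineage transcription factors -0.22 to 0.041. The median of death ligands and receptors was -0.20 to 0.015 with one library left out, and that of NK cytokines and their receptors -0.021 to 0.14, and -0.038 without both replicate 1 libraries. Libraries of equal number are not from the same animal. Their departures from the mean of their own label correlated at -0.28, 0.13 and -0.0073 over the 3 pairs, so no common pairing was seen over all genes. With 3 libraries per label these values cannot exclude a pairing by number. Both replicate 2 libraries were among the lowest 2 for 7 of the 9 member rows. With the replicate block, GZMB had an unadjusted p of 0.00543 and an adjusted p of 0.999 (limma), so that 1 of 9 members passed the unadjusted p, beside 384 of all genes (3.58%), and 0 the adjusted p, while CCL4 passed with an adjusted p of 0.0368 and passed under none of the other 12 alternatives.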

Other observations

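Genes of the killer cell programme also stood in rows without a symbol, which the Ensembl name table identifies. GZMK, a granzyme of memory-type T cells (ENSSSCG00000016901, chromosome 16 from 36320679 to 36329478), measured 9.21, 18.2 and 34.6 FPKM under the WT label and 25.7, 11.6 and 32.6 FPKM under the Leptin-overexpressing label, with a log2 fold change of 0.23 (SE 0.49, limma adjusted p = 0.993). Its highest library was WT replicate 3, as for the GZMA rows beside it on chromosome 16, but its lowest was WT replicate 1, the library in which GZMB was highest. The row named KLRD1 (ENSSSCG00000000642, chromosome 5 from 64390827 to 64391852), which encodes CD94, the partner chain of NKG2 receptors, spans 1026 bp. It was at 1.87 FPKM in WT replicate 1 and 1.89 FPKM in Leptin-overexpressing replicate 3 and was listed at 0 in the other 4 libraries, so it was not tested.

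Of 5 ratios formed within libraries after the values were seen, 2 did not overlap between the labels. FASLG over PRF1 was 0.264, 0.267 and 0.256 in the libraries labelled WT and 0.134, 0.245 and 0.182 in those labelled Leptin-overexpressing. The NCR1 row ENSSSCG00000027895 over its second copy was 1.21, 1.33 and 1.29 under the WT label and 1.13, 1.17 and 1.18 under the other. GZMB over PRF1 was 3.42, 0.793 and 2.36 under the WT label and 2.25, 0.396 and 0.786 under the other. The ratios were not tested, and no share over other pairs of genes was computed.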
